A study of Mus musculus with 40 samples.

Results

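The genes described are the 10 members of the Myc, Max and Mxd transcription factor network listed for this work: Myc, Mycn, Mycl, Max, Mxd1, Mxd3, Mxd4, Mxi1, Mnt and Mlx. They were found by matching the Ensembl mouse identifiers of the deposited count table to gene symbols. Each symbol matched 1 row, which gave 10 of the 49585 gene rows. Levels were measured in 4 bone marrow populations of 5 mice with the genotype Mbd3_Del/Del (Mbd3del) and 5 control mice with the genotype Mbd3_Flox/Flox, which carry the floxed allele undeleted. All 10 mice were on the C57BL6/129Ola background and 46 to 51 days old. The Mbd3 protein belongs to NuRD, a complex that remodels chromatin and deacetylates histones. The sources used here do not say how or in which cells the allele was deleted.

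Every mouse gave 1 library of each population, so there were 8 groups of 5 libraries, 40 in all. Haematopoietic stem cells (HSCs) carried CD45, CD150 and EPCR without CD48. The later populations were LMPPs (multipotent progenitors primed for the lymphoid lineages), ALPs (progenitors of all lymphoid lineages) and BLPs (lymphoid progenitors biased to the B lineage). They were lineage-negative cells with Sca-1, c-Kit and high Flt3. LMPPs lacked the interleukin 7 receptor, ALPs carried it without Ly6D, and BLPs carried it with Ly6D. According to the sample labels an HSC pool held 150 cells and any other pool 100, but the series design text swaps the numbers. Pool size thus differed between HSCs and the later populations and was equal in both genotypes. Titles of the Mbd3del LMPP libraries name the floxed allele, whereas their genotype fields name the deleted one, which was followed.

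Myc proteins (c-Myc, N-Myc and L-Myc) activate genes of growth and cell division when paired with Max, and cannot bind DNA well without it. The Mxd proteins, Mxi1 and Mnt compete for Max and recruit the Sin3 corepressor with its histone deacetylases to the same E box sites. Mlx is a Max-like partner that pairs with some Mxd proteins, with Mnt and with the glucose-sensing factors Mlxip and Mlxipl. In mouse bone marrow c-Myc and N-Myc are both expressed in stem cells, where they are known to act redundantly in survival, and c-Myc is known to promote exit from the stem cell niche.

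Libraries held 2974305 to 9082610 gene counts and 12845 to 15745 detected genes, and no pair of libraries was identical. Mbd3 averaged 0.105 to 0.844 CPM (a gene's count relative to the sum of all gene counts of its library, on the usual common scale) in the 4 Mbd3del groups and 15.7 to 61.7 CPM in the control groups. By edgeR, Mbd3 was lower in Mbd3del BLPs (adjusted p = 0.0105), LMPPs (0.00986) and HSCs (0.0365), whereas the ALP difference missed the threshold (adjusted p = 0.128). Marker genes followed the sort. Summed over 7 stem cell markers, group medians in HSCs were 1561 CPM for Mbd3del mice and 1479 CPM for control mice, and no more than 542 CPM in any other group. Summed over 6 B cell-biased markers, they were in BLPs 9968 CPM for Mbd3del mice and 9123 CPM for control mice, and no more than 306 CPM elsewhere. Most of this sum was Ly6d, the gene of the protein used to sort BLPs, with BLP means of 9902 CPM in Mbd3del and 7785 CPM in control mice. The other markers (Ebf1, Pax5, Cd79a, Vpreb1 and Igll1) also had their highest means in BLPs. Sex-linked transcripts went against the labelled sex in control mouse10372 and mouse10381, which carry the control genotype under either label. Results that rest on control libraries were therefore also computed without both mice.

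Sequence before a RefSeq transcript start is shown for the 4 members that changed between populations and matched an entry of the RefSeq promoter table (build GRCm38.p6), since the changes described below are changes in transcript level. Of the 10 members 9 matched there, with 11 windows of 250 bases before a start; Myc had no match. Bases that GENCODE M21 places in an exon were left out of what is printed. The stretch for Mycn is chr12:12941915-12942086 on the minus strand. For Mycl it is chr4:122995812-122995930 on the plus strand, which lies before the RefSeq start but inside the longer GENCODE gene interval, outside its annotated exons. For Mxd3 it is chr13:55329824-55329981 on the minus strand. For Mxd4 it is chr5:34187721-34187960 on the minus strand. Each is written 5′ to 3′, and capitals mark matches on either strand to the E box CACGTG, to the E2F words (TTCCCGC as the first, TTGGCGC as another and TTCGCGC as the last), or to the TATA word TATAAA.
Mycn: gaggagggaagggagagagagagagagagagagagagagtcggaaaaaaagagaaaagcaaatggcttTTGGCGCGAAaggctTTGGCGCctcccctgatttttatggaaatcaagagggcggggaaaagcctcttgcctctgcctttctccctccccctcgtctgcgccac
Mycl: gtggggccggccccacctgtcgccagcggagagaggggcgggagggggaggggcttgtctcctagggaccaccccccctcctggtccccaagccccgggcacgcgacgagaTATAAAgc
Mxd3: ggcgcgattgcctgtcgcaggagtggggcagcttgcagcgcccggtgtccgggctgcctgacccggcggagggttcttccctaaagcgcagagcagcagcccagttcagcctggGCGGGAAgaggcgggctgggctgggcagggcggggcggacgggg
Mxd4: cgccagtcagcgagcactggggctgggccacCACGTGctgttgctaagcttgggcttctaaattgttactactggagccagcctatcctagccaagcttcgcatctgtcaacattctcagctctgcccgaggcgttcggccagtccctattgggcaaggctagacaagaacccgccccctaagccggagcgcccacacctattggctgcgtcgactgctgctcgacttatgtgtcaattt
Mycn held 3 E2F matches, at positions -182, -179 and -167 from the start, of which the first pair overlap. Mxd3 held 1 at position -136. Mycl held the TATA word at position -8. Mxd4 held the E box at position -219, and among the other members Mnt and Mlx held one as well. Over all 32851 windows of the table, an E box stood in 6.02%, an E2F word in 6.69% and the TATA word in 12.4%. These matches describe the letters and not the binding of a factor.

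Mycn, which encodes N-Myc, was highest in stem cells and lower at every later stage. Its locus (ENSMUSG00000037169.14, GRCm38) spans bases 12936093 to 12941914 of chromosome 12, minus strand. In HSCs the 5 Mbd3del libraries had 183, 242, 312, 333 and 565 CPM, and the 5 control libraries 162, 224, 236, 325 and 333 CPM. In LMPPs the Mbd3del libraries had 75.2, 80.9, 84.0, 104.5 and 117 CPM, and the control libraries 23.3, 26.2, 47.1, 56.3 and 81.9 CPM. Every LMPP library was thus below every HSC library of its genotype, and among LMPPs only the highest control library reached into the Mbd3del range. In ALPs the Mbd3del libraries had 22.2, 28.0, 34.8, 40.1 and 91.7 CPM, and the control libraries 27.0, 34.6, 47.8, 48.3 and 51.4 CPM. In BLPs the Mbd3del libraries had 0, 4.55, 6.20, 7.91 and 12.9 CPM, and the control libraries 7.49, 10.04, 10.1, 20.5 and 25.3 CPM. The Mbd3del BLP library at 0 allows up to 0.463 CPM, from 3 counts over its total. Each library is bulk RNA of a cell pool, so fewer cells that express a gene and less RNA per cell cannot be told apart here.

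Mycn fell between the stem cell and the LMPP stage in both genotypes. The log2 fold change of LMPPs over HSCs was -1.74 ± 0.27 in Mbd3del mice (SE; edgeR adjusted p = 0.000834) and -2.37 ± 0.37 in control mice (adjusted p = 0.00166), and Mycn was lower in 5 of 5 mice of each genotype. Between BLPs and HSCs it was -5.43 ± 0.70 in Mbd3del mice (adjusted p = 6.67e-05) and -4.04 ± 0.41 in control mice (adjusted p = 9.91e-06). These 4 calls held under each alternative fit that was run and with any single mouse left out. Without mouse10372 and mouse10381 the control values were -2.26 (adjusted p = 0.0337) for LMPPs and -4.71 (adjusted p = 0.000164) for BLPs.

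The steps between the later populations were less certain. From LMPPs to ALPs the Mycn change was -1.05 ± 0.34 in Mbd3del mice (edgeR adjusted p = 0.191; -1.38 and adjusted p = 0.0424 without mouse10376, the highest ALP library) and -0.24 ± 0.43 in control mice (adjusted p = 0.946). From ALPs to BLPs it was -2.66 ± 0.80 in Mbd3del mice (adjusted p = 0.244) and -1.41 ± 0.48 in control mice (adjusted p = 0.839). In this last step no BLP library reached the lowest ALP library in either genotype, a separation that 2.71% of all tested genes showed in Mbd3del mice and 1.47% in control mice. DESeq2 called the Mbd3del ALP to BLP change (adjusted p = 0.0141). Ordered by mean, the 8 groups ran downwards as Mbd3del HSCs, control HSCs, Mbd3del LMPPs, control LMPPs, Mbd3del ALPs, control ALPs, control BLPs and Mbd3del BLPs. Neighbours in this order overlapped except between HSCs and LMPPs and between ALPs and BLPs.

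**Figure D1:**
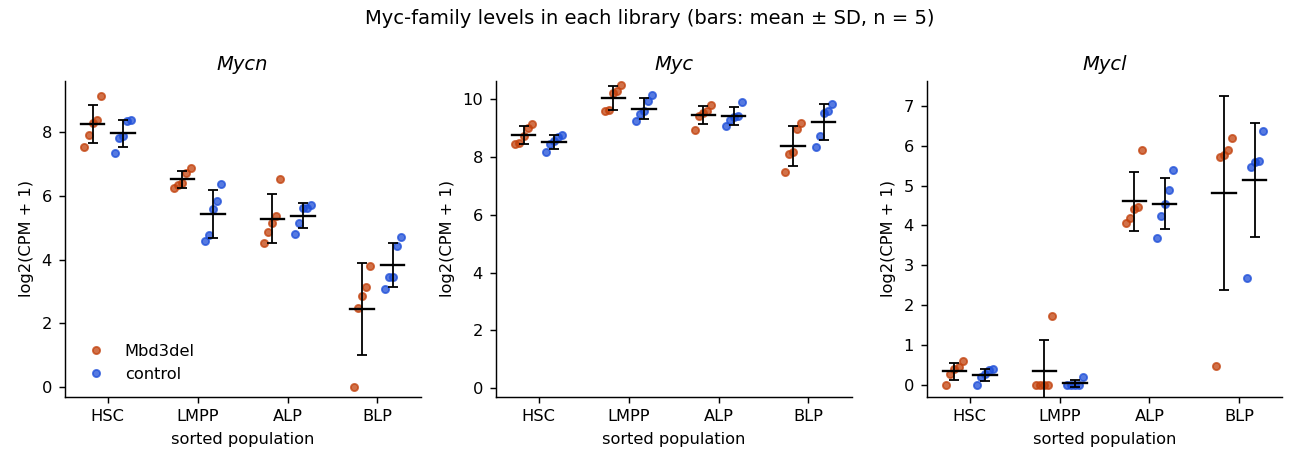
Level of Mycn, Myc and Mycl in each library as log2(CPM + 1) (y axis) by sorted population (x axis), with 5 Mbd3del libraries left and 5 control libraries right in each population, and bars for mean ± SD. Mycn is highest in HSCs, Myc is highest in LMPPs, and Mycl is near 0 until ALPs, with 1 Mbd3del BLP library at 0.386 CPM.

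Myc, which encodes c-Myc, did the opposite at the first step and was highest in LMPPs. Its locus (ENSMUSG00000022346.15) spans bases 61985391 to 61990374 of chromosome 15, plus strand. In HSCs the Mbd3del libraries had 347, 359, 423, 520 and 563 CPM, and the control libraries 286, 348, 376, 418 and 439 CPM. In LMPPs the Mbd3del libraries had 775, 797, 1191, 1253 and 1434 CPM, and the control libraries 604, 716, 771, 979 and 1130 CPM. All LMPP libraries were above all HSC libraries of their genotype. In ALPs the Mbd3del libraries had 494, 684, 741, 783 and 889 CPM, and the control libraries 538, 622, 672, 691 and 959 CPM. In BLPs the Mbd3del libraries had 177, 275, 292, 503 and 580 CPM, and the control libraries 327, 427, 739, 776 and 924 CPM. Mbd3del BLPs had the lowest group mean of all 8 groups, at 365 ± 169 CPM, and control BLPs had 638 ± 251 CPM (SD, n = 5 each), with overlapping libraries.

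Myc rose between HSCs and LMPPs by 1.36 ± 0.21 on the log2 scale in Mbd3del mice (SE; edgeR adjusted p = 0.00108) and by 1.26 ± 0.18 in control mice (adjusted p = 0.000876; 0.00897 without mouse10372 and mouse10381). The rise was seen in 5 of 5 mice of each genotype and was called under each alternative fit. Myc and Mycn were the 2 members called in this step in both genotypes, out of 9 tested, where 6.74% of all tested genes passed in Mbd3del mice and 5.99% in control mice. Libraries of LMPPs and HSCs did not overlap for either gene, as for 9.23% of tested genes in Mbd3del mice and 9.45% in control mice. Over the whole path the genotypes gave unlike values. Myc was 0.87 ± 0.25 higher on the log2 scale in BLPs than in HSCs of control mice (adjusted p = 0.0294). That call was lost with the mouse as a block (adjusted p = 0.102), without mouse10372 and mouse10381 (adjusted p = 0.0686) and with library totals in place of TMM scaling (adjusted p = 0.0585). It was also lost with mouse10358, mouse10372 or mouse10380 left out (adjusted p up to 0.152). In Mbd3del mice the change was -0.08 ± 0.28 (adjusted p = 0.891). The difference between these changes was -0.93 ± 0.39 (Mbd3del minus control; unadjusted p = 0.0252, adjusted p = 0.557), so it did not pass the test over all genes.

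Mycl, which encodes L-Myc, appeared at the ALP stage. Its locus (ENSMUSG00000028654.13) spans bases 122995652 to 123002485 of chromosome 4, plus strand. HSC libraries held 0 to 3 counts each, 8 in all over Mbd3del and 5 over control. The Mbd3del LMPP libraries held 12 counts, all from 1 mouse (mouse10384), and the control LMPP libraries 1 count. In ALPs the Mbd3del libraries had 15.6, 17.2, 20.3, 21.1 and 59.0 CPM, and the control libraries 11.9, 17.96, 22.1, 28.5 and 40.8 CPM. All 10 ALP libraries were thus above all 10 LMPP libraries, a separation between ALPs and LMPPs that 4.98% of all tested genes showed in Mbd3del mice and 3.50% in control mice. In BLPs the Mbd3del libraries had 0.386, 51.9, 53.6, 58.0 and 72.3 CPM, and the control libraries 5.37, 43.0, 46.8, 48.1 and 81.3 CPM. One low library in each genotype, from Mbd3del mouse10365 and control mouse10380, stood below the others of its BLP group.

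Counted over the pooled libraries, Mycl was 70.6-fold higher in ALPs than in LMPPs of Mbd3del mice (952 against 12 counts, counting interval 40.2 to 137). In control mice 810 counts in ALPs stood against 1 count in LMPPs, a ratio of 831 with an interval of 149 to 32860. In BLPs over HSCs the ratio was 159 (80.2 to 368) in Mbd3del mice and 240.2 (103 to 741) in control mice. These intervals are exact, at 95%, and cover counting error only. The edgeR test called Mycl in ALPs over LMPPs in Mbd3del mice (adjusted p = 0.0244) and control mice (adjusted p = 0.00137), as 1 of 10 members tested in each. Of all tested genes 2.18% passed in Mbd3del mice and 0.938% in control mice. Leaving out mouse10360, mouse10361, mouse10365 or mouse10376 ended the Mbd3del call (adjusted p up to 0.219). Without mouse10384 the fitted log2 change was 10.71 (adjusted p = 0.00254), against 5.95 with all mice, and depends on the prior count since the other LMPP libraries are at 0. Leaving out mouse10372 and mouse10381 ended the control call (adjusted p = 0.0574). In BLPs over HSCs Mycl was called in control mice (adjusted p = 2.72e-05). In Mbd3del mice it did not pass the expression filter, because of the low library, and without the filter its adjusted p was 3.89e-06. From ALPs to BLPs the log2 changes were 0.90 ± 0.75 in Mbd3del mice (adjusted p = 0.904) and 0.96 ± 0.57 in control mice (adjusted p = 0.998).

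The 3 paralogues therefore made up different parts of the Myc-family transcript at each stage. Levels are compared between genes per kilobase of annotated exon (CPM per kb), since longer transcripts give more reads. Mycn made up 37.2% ± 11.2 of the summed family level in Mbd3del HSCs and 36.1% ± 9.71 in control HSCs (SD, n = 5 each), and Myc nearly all of the rest. Mycn exceeded Myc per kb in 1 of 10 HSC libraries and in none of the 30 others. The Mycn share was 6.90% in Mbd3del and 4.35% in control LMPPs, 4.57% in Mbd3del and 4.76% in control ALPs, and 1.40% in Mbd3del and 2.12% in control BLPs. Mycl took 0.0370% or less in each HSC and LMPP group. In ALPs its share was 2.33% in Mbd3del and 2.31% in control mice, and in BLPs it was 10.1% ± 7.74 in Mbd3del and 5.45% ± 4.35 in control mice. The summed family level was 262 in Mbd3del and 215 in control HSCs, 429 in Mbd3del and 323 in control LMPPs, 284 in Mbd3del and 275 in control ALPs, and 148 in Mbd3del and 251 in control BLPs, in CPM per kb. These sums and shares are descriptions and were not tested.

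**Figure D2:**
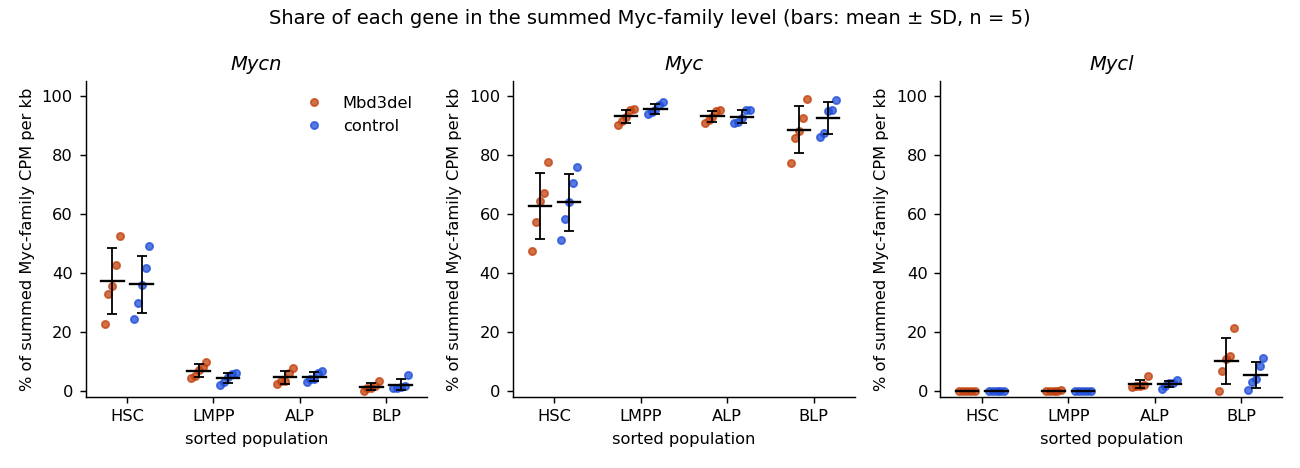
Share of Mycn, Myc and Mycl in the summed Myc-family level per kb (y axis, percent) by sorted population (x axis) in each library, Mbd3del left and control right, with mean ± SD bars. Mycn holds 22.5% to 52.4% in HSC libraries and at most 9.76% in any other, and Mycl reaches 21.2% in 1 Mbd3del BLP library.

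Max and Mlx, the shared partners, were present at every stage and were not called in any comparison. Max, the obligate partner of the Myc proteins, had group means of 46.2 to 76.2 CPM in Mbd3del and 45.3 to 73.1 CPM in control populations. A single control LMPP library, from mouse10372, stood at 0.617 CPM, while the other 4 of that group had 36.7 to 87.9 CPM. Mlx had group means of 47.1 to 55.7 CPM in Mbd3del and 56.1 to 70.6 CPM in control populations. Mlx was lower on average in Mbd3del than in control libraries of all 4 populations, with log2 differences of -0.14 to -0.51, none of which passed (edgeR adjusted p from 0.772 to 1). Exon bases of Mlx overlap those of Psmc3ip on the other strand over 19.3% of their length, so its count is uncertain without strand. Per kb, the summed Myc-family level exceeded that of Max in each group mean, with 262 against 16.2 CPM per kb in Mbd3del HSCs and 215 against 15.2 CPM per kb in control HSCs.

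Among the repressors, Mxd3 and Mxd4 had higher means in BLPs than in HSCs in both genotypes. Mxd3 encodes a Mad protein known from cycling cells. In HSCs the Mbd3del libraries had 0.153, 0.180, 6.97, 7.06 and 12.6 CPM, and the control libraries 0.148, 0.200, 0.311, 0.535 and 3.48 CPM. In BLPs the Mbd3del libraries had 27.2, 29.7, 33.6, 35.7 and 38.1 CPM, and the control libraries 0, 13.1, 14.2, 16.5 and 30.3 CPM. The Mbd3del BLP libraries were close together and above all HSC libraries. Between BLPs and HSCs of Mbd3del mice 19.4% of all tested genes did not overlap. LMPP and ALP libraries were scattered, from 0.283 to 30.2 CPM in Mbd3del and from 0 to 27.4 CPM in control mice. Mxd3 was called higher in BLPs than in HSCs of Mbd3del mice (log2 fold change 2.72 ± 0.90, edgeR adjusted p = 0.0468), a value at the threshold. It was lost with the mouse as a block (adjusted p = 0.0585), with library totals (0.0566), in the joint fit of 40 libraries (0.117) and with any single mouse left out (adjusted p from 0.0525 to 0.113). In control mice the change was 4.08 ± 1.31 (adjusted p = 0.0507 with edgeR and 0.00405 with DESeq2). Between LMPPs and HSCs of control mice it was 3.78 ± 1.33 (edgeR adjusted p = 0.131), and without mouse10372 and mouse10381 it was 5.74 and passed (adjusted p = 0.0337). Exons of Prelid1 on the other strand overlap 4.43% of the Mxd3 exon bases.

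Mxd4, a Mad protein known from cells leaving the cycle, had in HSCs 7.38, 9.41, 21.1, 47.3 and 57.8 CPM in Mbd3del libraries and 3.10, 10.9, 14.4, 22.5 and 26.1 CPM in control libraries. In BLPs it had 27.4, 37.2, 41.9, 47.3 and 61.2 CPM in Mbd3del libraries and 31.6, 41.9, 47.3, 70.5 and 71.1 CPM in control libraries. Control BLP and HSC libraries did not overlap, as for 16.9% of all tested genes, while those of Mbd3del mice did. Mxd4 rose between HSCs and BLPs in control mice, by 1.86 ± 0.50 on the log2 scale (edgeR adjusted p = 0.0203), a call lost without mouse10372 and mouse10381 (2.09, adjusted p = 0.0988) and with mouse10357 or mouse10358 left out (adjusted p up to 0.102). In Mbd3del mice the change was 0.87 ± 0.50 (adjusted p = 0.265), and the difference between the genotypes was -0.97 ± 0.71 (adjusted p = 0.817). Its mean in LMPPs was 45.1 ± 12.9 CPM for Mbd3del and 29.9 ± 7.85 CPM for control mice, and in ALPs 49.4 ± 15.5 CPM for Mbd3del and 64.3 ± 51.9 CPM for control mice (SD, n = 5 each), the last with 1 library at 155 CPM. Exon bases of the antisense gene Gm42846 overlap 6.06% of those of Mxd4.

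Over the path from HSCs to BLPs, 2 of 9 members tested in Mbd3del mice (Mycn lower, Mxd3 higher) and 4 of 10 in control mice (Mycn lower, Myc, Mycl and Mxd4 higher) passed the edgeR test. Of all tested genes 19.3% passed in Mbd3del mice, 1067 higher and 1107 lower (860 and 1367 with library totals in place of TMM scaling), and 15.7% passed in control mice. Libraries of the path's ends did not overlap for 19.4% of tested genes in Mbd3del mice and 16.9% in control mice. In the ALP to BLP step no member passed with edgeR in either genotype, where 0.636% of all tested genes passed in Mbd3del and 0.266% in control mice. At an unadjusted p under 0.05 there were 3 members in Mbd3del mice (Myc, Mycn and Max) and 2 in control mice (Mycn and Mnt), a threshold that 7.75% of all tested genes passed in Mbd3del and 4.32% in control mice. DESeq2 called 2 members in Mbd3del mice, Mycn and Myc, and 0 in control mice. It called 152 genes higher and 55 lower of 10842 tested in Mbd3del mice, and 54 and 13 of 10905 in control mice.

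**Figure D3:**
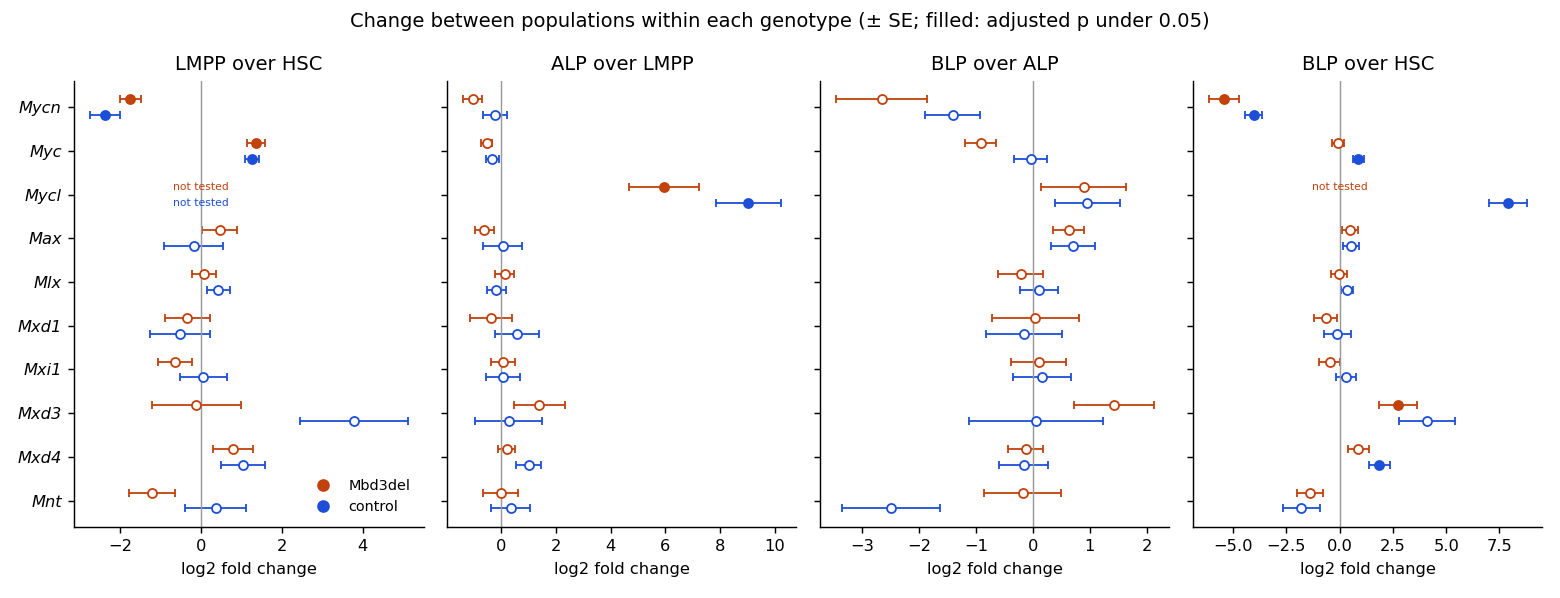
Log2 fold change (x axis) of the 10 members (y axis) for 3 steps and the ends of the path, Mbd3del above control in each row, with SE bars; filled points passed at an adjusted p under 0.05 in edgeR. Mycn lies left of 0 and Myc right of 0 in the LMPP over HSC panel of both genotypes, and Mycl stands furthest to the right in ALPs over LMPPs.

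Mxd1, Mxi1 and Mnt were not called between any populations in the reported edgeR fits. The log2 change of Mnt in BLPs over HSCs of Mbd3del mice was -1.41 ± 0.61 (unadjusted p = 0.0353, edgeR adjusted p = 0.129), and of the alternatives run it passed only with the newer edgeR estimator (-1.52, adjusted p = 0.0323). Mxd1, which encodes Mad1, a repressor that rises in differentiating blood cells, had group means of 13.6 to 25.1 CPM in Mbd3del and 12.9 to 22.4 CPM in control populations. Its Mbd3del ALP mean of 14.2 CPM was 7.96 CPM without mouse10376, and its control HSC mean of 21.8 CPM was 13.7 CPM without mouse10381. Mxi1, another Sin3-recruiting partner of Max, had 27.7 to 44.6 CPM in Mbd3del and 32.3 to 38.0 CPM in control populations. For both genes all neighbouring groups in the order of the means overlapped. Mnt, a constitutive antagonist of Myc that pairs with Max or Mlx, was higher on average in Mbd3del HSCs (10.4, 12.1, 24.3, 50.8 and 53.4 CPM) than in control HSCs (1.03, 7.19, 7.85, 13.4 and 21.8 CPM). It was also higher on average in Mbd3del BLPs (2.70, 6.06, 11.3, 13.05 and 13.2 CPM) than in control BLPs (0.835, 1.38, 2.17, 3.58 and 5.34 CPM). In LMPPs Mnt averaged 11.8 CPM in Mbd3del and 12.1 CPM in control mice, and in ALPs 11.1 CPM in Mbd3del and 16.4 CPM in control mice. Its control BLP libraries all lay below its control ALP libraries, the highest at 5.34 CPM and the lowest at 5.37 CPM. Such a separation was shown by 1.47% of all tested genes, and the Mnt change of -2.49 ± 0.86 did not pass (edgeR adjusted p = 0.88). Exons of Gm10197 on the other strand overlap 2.84% of the Mxi1 exon bases.

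**Figure D4:**
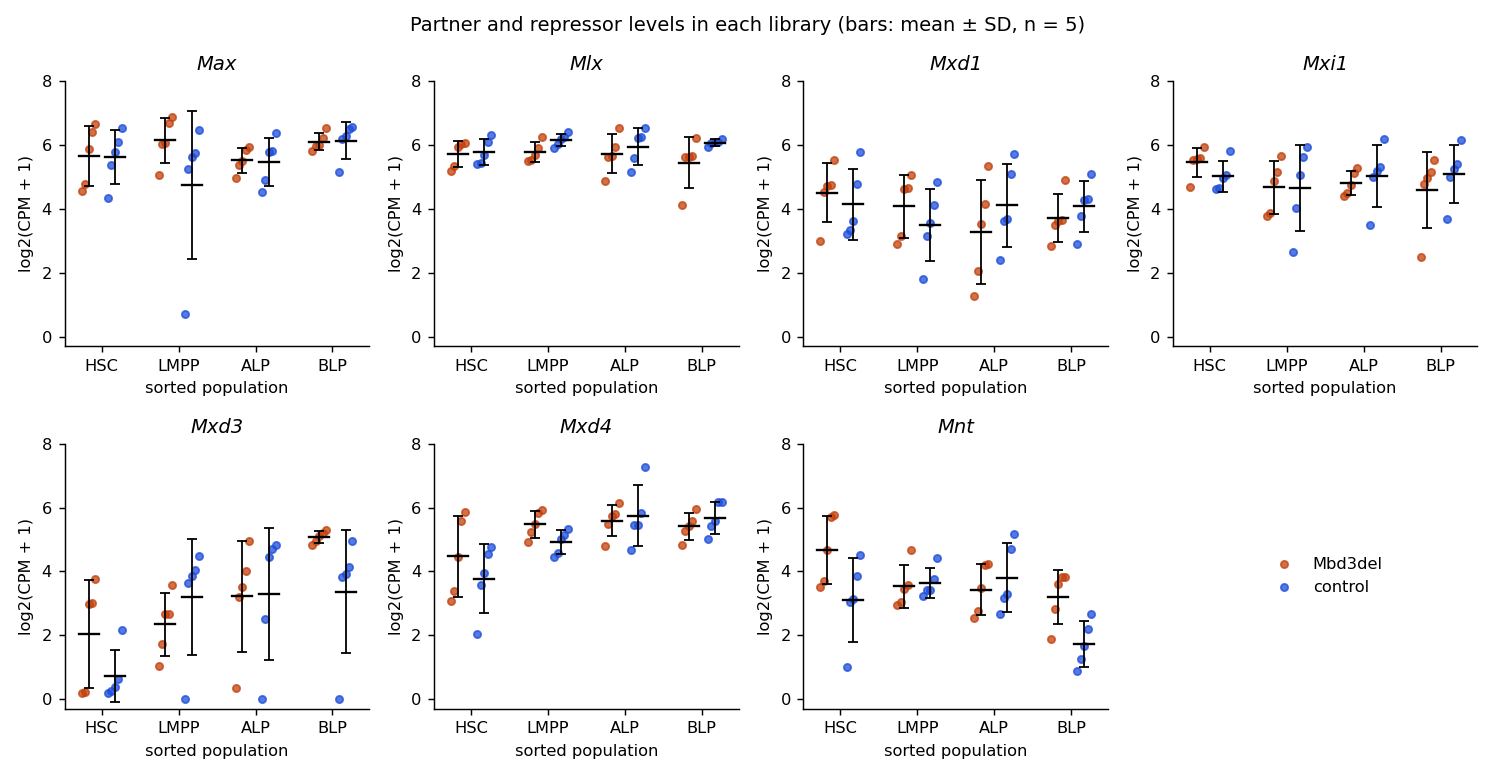
Level of Max, Mlx, Mxd1, Mxi1, Mxd3, Mxd4 and Mnt in each library as log2(CPM + 1) (y axis) by sorted population (x axis), with 5 Mbd3del libraries left and 5 control libraries right, and bars for mean ± SD. The Mbd3del BLP libraries of Mxd3 lie close together, at 27.2 to 38.1 CPM, and single libraries of Max and Mxd3 lie near 0.

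Per kb, the sum of the 4 Mxd-type genes and Mnt stayed below the Myc-family sum in each group mean. The log2 ratio of the Myc-family sum over this repressor sum averaged 3.601 in Mbd3del and 4.18 in control HSCs, 4.69 in Mbd3del and 4.19 in control LMPPs, 3.89 in Mbd3del and 3.64 in control ALPs, and 2.39 in Mbd3del and 3.56 in control BLPs. Mbd3del BLPs had the lowest mean ratio, and their libraries (1.83 to 3.20) overlapped those of control BLPs (2.42 to 4.55). Mxd3 made up 52.2% ± 7.63 of the repressor sum in Mbd3del BLPs and 27.0% ± 17.6 in control BLPs (SD, n = 5 each). Mxi1 held the largest mean share in HSCs, at 31.9% in Mbd3del and 43.6% in control mice.

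Between the genotypes no member was called in any population. With edgeR 0 of 8 members passed in HSCs, 0 of 9 in LMPPs, 0 of 10 in ALPs and 0 of 10 in BLPs, and DESeq2 called 0 in each. Few genes of any kind passed: 0.0176% of those tested among HSCs, 0.0183% among LMPPs, 0.0182% among ALPs and 0.0743% among BLPs. At an unadjusted p under 0.05 there was 1 member in HSCs (Mnt), 1 in LMPPs (Mycn), 0 in ALPs and 2 in BLPs (Myc and Mnt). That unadjusted threshold was met by 4.11% of all genes tested among HSCs, 5.19% among LMPPs, 2.3% among ALPs and 8.31% among BLPs. The log2 difference of Mnt was 1.44 ± 0.67 in HSCs (Mbd3del over control; SE, unadjusted p = 0.049, edgeR adjusted p = 0.955) and 1.82 ± 0.83 in BLPs (unadjusted p = 0.045, adjusted p = 0.582). That of Mycn was 0.86 ± 0.36 in LMPPs (unadjusted p = 0.0313, adjusted p = 0.937), with 92.3 ± 17.7 CPM in Mbd3del and 47.0 ± 24.0 CPM in control mice (SD, n = 5 each). The 7 stem cell markers moved with it, all with counts in both groups, at a sum of 496 to 685 CPM in Mbd3del and 163 to 471 CPM in control LMPP libraries; their part in the Mycn value was not tested. That of Myc was -0.80 ± 0.33 in BLPs (unadjusted p = 0.0279, adjusted p = 0.513). Without mouse10372 and mouse10381 no member was called either, and Myc in BLPs differed by -0.76 (adjusted p = 0.694).

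**Figure D5:**
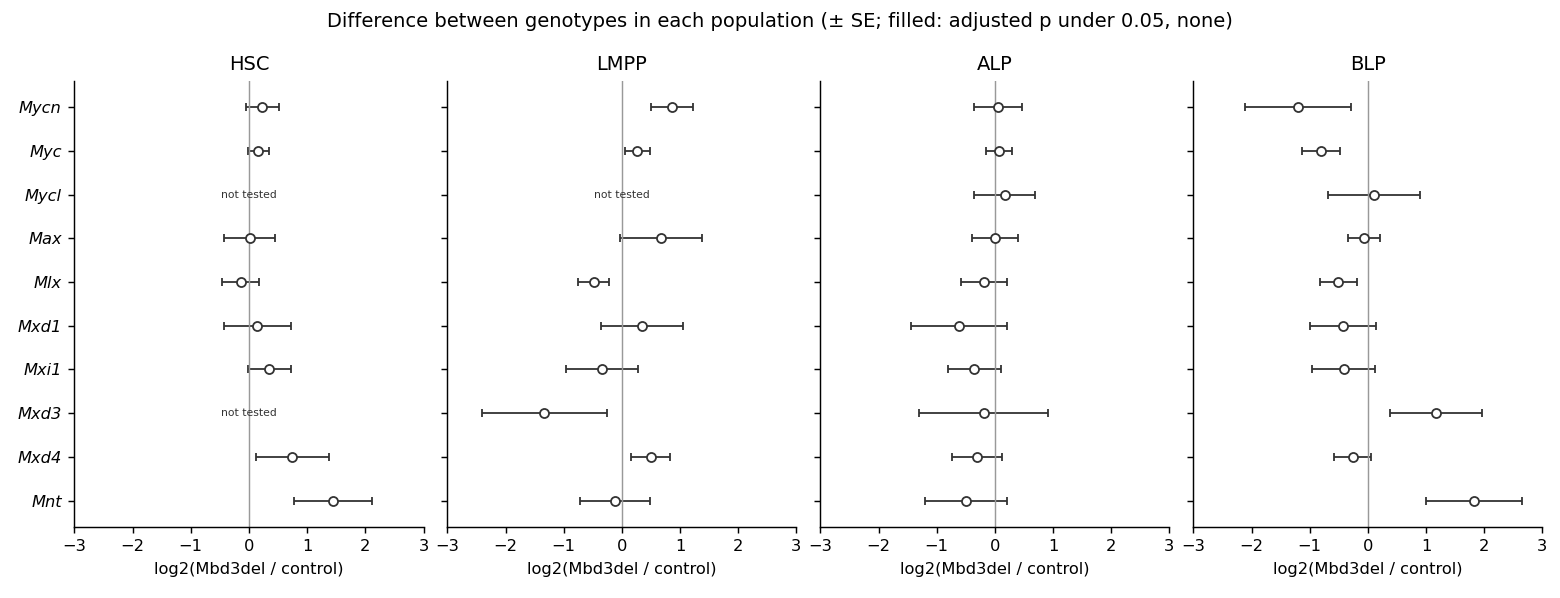
Log2 difference between Mbd3del and control (x axis, positive where Mbd3del is higher) for the 10 members (y axis) in HSCs, LMPPs, ALPs and BLPs, with SE bars. No point passed at an adjusted p under 0.05 in edgeR. Among the 8 members tested in HSCs and the 10 in BLPs, Mnt lies furthest right, at 1.44 and 1.82. Mycl and Mxd3 were not tested in HSCs, and Mycl was not tested in LMPPs.

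The steps themselves were also compared between the genotypes. With edgeR 0 members passed in the difference of any step, as did 0% of all tested genes for each single step and 0.0472% for BLPs over HSCs. At an unadjusted p under 0.05 there were 1 member for LMPPs over HSCs (Mxd3), 0 for ALPs over LMPPs, 2 for BLPs over ALPs (Myc and Mnt) and 1 for BLPs over HSCs (Myc). The shares of all tested genes there were 5.13%, 4.51%, 4.03% and 7.83%, in that order of steps. DESeq2 called 0 in each. For Mycn the difference of the LMPP over HSC change was 0.63 ± 0.45 (adjusted p = 1), and for Myc it was 0.11 ± 0.27 (adjusted p = 1).

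Other cell types' markers moved with the genotype in BLPs. All 6 neutrophil and monocyte markers had counts in Mbd3del BLPs and 5 of 6 in control BLPs, where Elane was at 0. Their sum was 324 to 625.4 CPM in Mbd3del and 107 to 290 CPM in control BLP libraries. All 5 dendritic cell markers had counts in both, with sums of 2089 to 3938 CPM in Mbd3del and 969 to 1947 CPM in control BLPs. The 20 proliferation genes were also higher on average in Mbd3del BLPs, with a mean log2(CPM + 1) of 7.76 ± 0.20 in Mbd3del and 6.75 ± 0.56 in control BLPs. Of these 20 genes edgeR called 1 higher (Rrm2, a subunit of ribonucleotide reductase, log2 difference 1.44 ± 0.22, adjusted p = 0.0384), 20 had a positive difference, and the median was 0.79 beside -0.03 over all tested genes. Of all tested genes 0.0743% passed with edgeR. At an unadjusted p under 0.05 in edgeR there were 13 of the 20, beside 8.31% of all tested genes. DESeq2 called 7 of the 20, and of all 10772 tested genes it called 112 higher and 46 lower. The edgeR count was 0 with library totals, in the joint fit or without mouse10372 and mouse10381. The Rrm2 call was lost with 8 of the 10 mice left out singly (adjusted p up to 0.119), all but mouse10357 and mouse10376. The part of these markers in the Myc, Mxd3 and Mnt values of BLPs was not tested.

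Other genes of the pathway were counted from lists of known members. In LMPPs over HSCs 7 of 20 proliferation genes passed as higher in Mbd3del mice and 18 of 20 in control mice, and none as lower, where 6.74% of all tested genes passed in Mbd3del and 5.99% in control mice. The Mbd3del count was 13 with the newer edgeR estimator and 4 without mouse10365, and the control count was 8 without mouse10372 and mouse10381 (9 to 16 with 1 mouse left out, lowest without mouse10380). In the difference of this step between the genotypes 0 of the 20 passed. The genes that rose in both included Top2a, a topoisomerase of dividing cells, with a log2 fold change of 2.07 ± 0.33 in Mbd3del mice (edgeR adjusted p = 0.00106) and 3.23 ± 0.27 in control mice (adjusted p = 1.36e-05). The list of 30 known Myc targets held genes of ribosome production and metabolism and others such as Cdk4, Ccnd2, Tert and Tfrc. In this step 2 of 30 targets tested passed as higher in Mbd3del mice and 3 of 29 in control mice. The shares of all tested genes were the same 6.74% and 5.99%. The Mbd3del count was 0 with the mouse as a block, and the control count was 1 without mouse10372 and mouse10381 and 0 without mouse10380. The targets that passed were Dkc1, a pseudouridine synthase, in both genotypes, the chaperonin Hspd1 in Mbd3del mice, and Cdk4, a kinase of the G1 phase, and the transferrin receptor Tfrc in control mice. The targets' median log2 change was 0.55 in Mbd3del mice and 0.64 in control mice, beside -0.041 over all tested genes in Mbd3del and -0.004 in control mice. It was positive for 28 of 30 targets in Mbd3del mice and 27 of 29 in control mice.

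In BLPs over HSCs 18 of 20 proliferation genes passed as higher with edgeR in Mbd3del mice and 13 of 20 in control mice. Of all tested genes 19.3% passed in Mbd3del and 15.7% in control mice. The change was positive for 20 of 20 in both genotypes. DESeq2 called 17 of 20 in each genotype. It called 1269 genes higher and 1409 lower of 11258 tested in Mbd3del mice, and 1042 and 1268 of 11195 in control mice. In the difference of this change between the genotypes 0 of the 20 passed with edgeR. Among those called in both genotypes was Aurkb, a mitotic kinase, with a log2 fold change of 4.17 ± 0.92 in Mbd3del mice (edgeR adjusted p = 0.00476) and 3.78 ± 0.78 in control mice (adjusted p = 0.00345). The Mbd3del call of Aurkb was lost with no filter (adjusted p = 0.0564). Of the Myc targets 2 of 29 passed as higher in Mbd3del mice and 6 of 29 in control mice, and none as lower, against the same backgrounds of 19.3% and 15.7%. The control count was 3 with the mouse as a block and 2 without mouse10372 and mouse10381 or without mouse10380. Tfrc changed most, with 1385 CPM in BLPs against 72.7 CPM in HSCs of Mbd3del mice, and 926 CPM in BLPs against 45.0 CPM in HSCs of control mice. The targets' median change was -0.01 in Mbd3del mice, where 14 were positive and 15 negative, and 0.48 in control mice, where 26 were positive and 3 negative. Over all tested genes the median was -0.107 in Mbd3del and -0.007 in control mice. Between the genotypes in BLPs 0 of 29 targets passed with edgeR or DESeq2. In edgeR 7 of 29 had an unadjusted p under 0.05, a threshold that 8.31% of all tested genes passed. A negative difference was seen for 22 of 29, with a median of -0.295 beside -0.029 over all tested genes.

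Among cofactors and regulators 0 or 1 gene per list passed in each comparison, beside 6.74% of all tested genes in Mbd3del and 5.99% in control mice for LMPPs over HSCs, and 19.3% and 15.7% for BLPs over HSCs. Of 10 Myc cofactors edgeR called 1 in LMPPs over HSCs of Mbd3del mice, the ATPase Ruvbl2 (log2 fold change 1.01 ± 0.22, adjusted p = 0.0105; 0.0553 without mouse10384). In BLPs over HSCs it called Trrap, a scaffold of acetyltransferase complexes, lower in Mbd3del mice (-0.96 ± 0.30, adjusted p = 0.0376), and Actl6a, an actin-like subunit, higher in control mice (0.92 ± 0.20, adjusted p = 0.00579). The Trrap call was lost with the mouse as a block, with no filter and with any Mbd3del mouse but mouse10361 left out (adjusted p up to 0.224), and the Actl6a call in the joint fit and without mouse10372 and mouse10381 (adjusted p up to 0.161). Of 8 genes of the Sin3 corepressor, Rbbp4, a histone-binding subunit shared with NuRD, was called higher in BLPs than in HSCs in Mbd3del (1.46 ± 0.24, adjusted p = 0.000546) and control mice (0.996 ± 0.29, adjusted p = 0.0301). The control call was lost with library totals, without mouse10372 and mouse10381 and with any control mouse but mouse10372 left out (adjusted p up to 0.143). Of 8 genes that set Myc protein stability, the ubiquitin ligase subunit Skp2 was higher in Mbd3del BLPs than HSCs (2.51 ± 0.40, adjusted p = 0.000364). The mitotic kinase Aurka was higher in control LMPPs (3.27 ± 0.83, adjusted p = 0.0347) and control BLPs (3.45 ± 0.94, adjusted p = 0.0213) than in control HSCs. Both Aurka calls were lost with the mouse as a block (adjusted p up to 0.119). They were also lost with mouse10357 or mouse10358 left out, the LMPP call with mouse10380 or mouse10381 and the BLP call with mouse10372 (adjusted p up to 0.184). In ALPs over LMPPs, in BLPs over ALPs and between the genotypes, edgeR and DESeq2 called 0 genes of these 3 lists. There 0 to 1 gene per list and comparison had an unadjusted p under 0.05 in edgeR, beside 2.3% to 10.6% of all tested genes.

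Among relatives of the network, Mga, a large protein that pairs with Max, fell between HSCs and LMPPs in Mbd3del mice (log2 fold change -0.75 ± 0.18, edgeR adjusted p = 0.0178) and was lower in BLPs than HSCs (-0.77 ± 0.21, adjusted p = 0.0165). The LMPP call was lost with no filter, in the joint fit and with any Mbd3del mouse but mouse10384 left out (adjusted p up to 0.127), and the BLP call without mouse10360, mouse10361 or mouse10376 (adjusted p up to 0.0602). In HSCs Mga had 191, 207, 223, 228 and 237 CPM in Mbd3del libraries and 87.6, 120, 152, 162 and 163 CPM in control libraries. These groups did not overlap, as for 1.02% of tested genes, yet the difference did not pass (0.58 ± 0.21, unadjusted p = 0.0149, adjusted p = 0.955). In control mice the LMPP over HSC change of Mga was 0.13 ± 0.32 (adjusted p = 0.9). Mlxip, a glucose-sensing partner of Mlx, had 30.4, 33.2, 63.5, 86.7 and 96.8 CPM in Mbd3del BLPs and 106, 112, 125, 152 and 153 CPM in control BLPs. These groups did not overlap either, as for 2.58% of tested genes (difference -1.01 ± 0.34, unadjusted p = 0.00927, adjusted p = 0.368). Its paralogue Mlxipl had no count in 37 of 40 libraries.

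Genes whose levels followed those of a member most closely were ranked by Pearson's r of log2(CPM + 1) over the 40 libraries, among 9798 genes with a mean of at least 5 CPM. These values are descriptions over libraries that share mice and populations. Mycn was most like Nfe2 (r = 0.875), Mecom (0.874), Myct1 (0.871), Lcp2 (0.863) and Tbxas1 (0.849). Mecom, which encodes a zinc finger factor of stem cells, stood in HSCs at 301 CPM for Mbd3del and 233 CPM for control mice, and in BLPs at 0.223 CPM for Mbd3del and 1.69 CPM for control mice. Myc was most like Cd34 (0.855), AC174780.1 (0.799), Tes (0.781), Ptpn7 (0.761) and Cd27 (0.759). Cd34, the sialomucin used to sort progenitors, peaked like Myc in LMPPs, with 1874 CPM in Mbd3del and 1499 CPM in control mice. Mxd4 was most like Cotl1 (0.865), Btg2 (0.831), Ubald1 (0.827), Tbxa2r (0.826) and Palm (0.823). Btg2, known to restrain cell division, stood in HSCs at 25.8 CPM for Mbd3del and 17.1 CPM for control mice, and in BLPs at 160.1 CPM for Mbd3del and 90.0 CPM for control mice.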

How the data were processed

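What the authors deposited is 1 raw count table of 40 Smart-seq2 libraries, a full-length method without molecular identifiers or strand. The submitters' processing notes name STAR 2.5.2b, HTSeq 0.6.1p1 and the build GRCm38. Annotation release and strand setting: not given in the sources used here. All 79325 repRegion rows (0.205% to 2.28% of counts) stayed out of library sizes and tests. Of 49585 gene rows, 49326 matched GENCODE M21, which gave symbols, coordinates and exon lengths. CPM are counts over the library's gene total, without TMM scaling. The members and gene lists were chosen with earlier results of these data known. The text names all members, 3 relatives, up to 4 called genes per list and comparison by fold (5 CPM or more in the group with the higher mean; not all are printed), and the 5 genes most like Mycn, Myc and Mxd4.

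Tests used edgeR 4.0.16 (quasi-likelihood F, robust, TMM scaling, default filter with minimum count 10) in R 4.3.3 on the libraries of each of 16 comparisons, with Benjamini-Hochberg adjustment over all tested genes at 0.05, and were checked on simulated data. An SE is the log2 fold change over the square root of F. Replicates are mice, and p-values measure the spread between them. Libraries of different populations share a mouse by the labels, so a fit with the mouse as a block was an alternative; same-mouse deviations correlated weakly (r from -0.185 to 0.214). Other alternatives were DESeq2 1.42.0, other scalings, no filter, a joint fit, a newer estimator and left-out mice. A count of 3 corresponds to 0.330 to 1.01 CPM. Intervals and floors reflect counting error alone, since reads copied by PCR are no independent molecules.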

Additional observations from a re-analysis of the deposited data

Results flagged for a closer look

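In 10 of 80 groups of 5 libraries (10 members in 8 groups), 1 library lay far from the other 4 by Dixon's test at 95%. For normally distributed values chance flags about 1 in 20 such groups. That rate does not hold where 4 libraries are at 0, as for Mycl in LMPPs, so it cannot tell whether 10 is more than chance gives. In Mbd3del ALPs Mycn was at 91.7 CPM in mouse10376 (the others 22.2 to 40.1 CPM) and Mycl at 59.0 CPM in mouse10360 (15.6 to 21.1 CPM). In Mbd3del BLPs Mycl was at 0.386 CPM in mouse10365 (51.9 to 72.3 CPM) and Mxd1 at 28.8 CPM in mouse10361 (6.10 to 11.7 CPM). In Mbd3del LMPPs Mnt was at 24.3 CPM in mouse10376 (6.77 to 10.8 CPM). Mycl was the only value above 0 in LMPPs at 2.32 CPM in Mbd3del mouse10384 and 0.143 CPM in control mouse10357. In control HSCs Mxd3 was at 3.48 CPM in mouse10381 (0.148 to 0.535 CPM) and Mxi1 at 54.9 CPM in mouse10358 (23.5 to 32.1 CPM). In control ALPs Mxd4 was at 155 CPM in mouse10372 (24.6 to 56.2 CPM).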

How the results depend on the processing

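Of 153 tested pairs of a member and a comparison, 12 passed in the reported fit and 18 under some setting, and 0 called values reversed. Of the 135 never called, 59 changed sign under some alternative. Mycn and Myc in LMPPs over HSCs and Mycn in BLPs over HSCs passed under every alternative run. In ALPs over LMPPs the member count was 1 in Mbd3del mice (0 to 1 with 1 mouse left out) and 1 in control mice (0 without mouse10372 and mouse10381). In BLPs over ALPs of Mbd3del mice it was 0 in the reported fit, 2 with DESeq2, and 1 with the joint fit of 40 libraries and with the newer edgeR estimator. In BLPs over HSCs it was 2 in Mbd3del mice, 1 with library totals only and 1 with the mouse as a replicate block (1 to 2 with 1 mouse left out). It was 4 in control mice, and 2 without mouse10372 and mouse10381 (2 to 4 with 1 mouse left out, the lowest without mouse10358). Of the member calls, the mouse as a block ended those of Myc in control mice and Mxd3 in Mbd3del mice, both in BLPs over HSCs. Among named genes of other lists it also ended calls of Trrap, Aurka, Dkc1 and Hspd1. For Tfrc and Rrm2 it ended the calls in BLPs over ALPs of Mbd3del mice, which are not described above. Tfrc in BLPs over HSCs passed with the block in both genotypes. The block was not run between the genotypes, the comparison for which Rrm2 is given above. The causes of these changes between settings were not tested. Library totals in place of TMM scaling moved the median change of all genes in BLPs over HSCs of Mbd3del mice to -0.32, against -0.107 in the reported fit. TMM-scaled CPM moved none of the 80 group means by more than 1 SD. This is a wide bound, since some SDs exceeded their mean, as for Mxd3 in control HSCs (0.934 ± 1.43 CPM), so it cannot exclude smaller shifts. Leaving out 1 mouse moved 8 of them by over 1.5 times, such as Mxd3 in control HSCs (0.298 CPM without mouse10381, 0.934 CPM with it) and Mxd4 in control ALPs (41.7 CPM without mouse10372, 64.3 CPM with it). Levels under about 1 CPM rest on few counts.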
